A study of Mus musculus with 12 samples.

Results

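Genes of blood clotting and clot dissolution were followed across 4 sorted mouse stromal populations. They were F3 (tissue factor), Tfpi, Tfpi2, Thbd, Procr, Serpine2, Plat, Plau and Plaur, which is 9 of the 49585 Ensembl genes in the count files, and each symbol matched a single Ensembl identifier. The members were chosen by their known role in clotting and fibrinolysis, on seeing their levels in these same 12 libraries in earlier results, so the levels and fold changes of the 9 genes are a description and carry no test. The study asked how Itga8+ cells of the bone surface differ from other mesenchymal stromal cells (MSCs) of the marrow. All cells came from 8- to 10-week-old male C57BL/6 mice, wild-type and at steady state, and all were CD45-, Ter119- and CD31-, that is, depleted of blood and endothelial cells. The populations were Itga8+ MSCs (Itga8+, Alcam+ and Sca-1-), Itga8- bone-lining cells (Itga8- BLCs; Itga8-, Alcam+ and Sca-1-, labelled osteoblasts), Sca-1+ MSCs (Alcam- and Sca-1+, Sca-1+ cells in what follows) and CD51+CD140a+ MSCs (CD51+CD140a+ cells), with 3 RNA-seq libraries of 2000 cells for each. The first 3 populations were released with collagenase from bone fragments after the marrow had been flushed out, whereas CD51+CD140a+ MSCs came from the flushed marrow after digestion with Accumax. The population and the isolation method therefore cannot be told apart in any comparison with CD51+CD140a+ MSCs.

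Tissue factor is the membrane receptor that starts clotting when it binds factor VII, and it is held in check by tissue factor pathway inhibitor. Thrombin is in turn restrained by thrombomodulin and the protein C receptor on cell surfaces, and by serpins such as protease nexin-1. Fibrin is removed by plasmin, which is made from plasminogen by tissue-type and urokinase-type activators, the latter held at the cell surface by its receptor. Tissue factor is known for its presence on stromal and perivascular cells outside the bloodstream, where it does not meet plasma until a vessel is damaged.

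The promoter windows of the initiator, F3, of the member with the most similar pattern, Plaur, and of the member with the most opposite one, Serpine2, are shown because they carry or lack the motif TGANTCA, the letters of an AP-1 element. Each runs from 250 bases before to 50 bases after a RefSeq start site on GRCm38.p6, and capitals mark TGANTCA. F3 lies at chr3:121723287-121723586 on the plus strand, Plaur at chr7:24462233-24462532 on the plus strand and Serpine2 at chr1:79858616-79858915 on the minus strand.
F3: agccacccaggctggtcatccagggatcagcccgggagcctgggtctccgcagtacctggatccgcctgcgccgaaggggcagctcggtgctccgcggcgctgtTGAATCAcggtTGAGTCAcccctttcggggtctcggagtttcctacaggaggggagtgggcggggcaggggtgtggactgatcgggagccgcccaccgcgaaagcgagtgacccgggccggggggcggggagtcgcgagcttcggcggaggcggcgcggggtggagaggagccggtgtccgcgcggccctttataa
Plaur: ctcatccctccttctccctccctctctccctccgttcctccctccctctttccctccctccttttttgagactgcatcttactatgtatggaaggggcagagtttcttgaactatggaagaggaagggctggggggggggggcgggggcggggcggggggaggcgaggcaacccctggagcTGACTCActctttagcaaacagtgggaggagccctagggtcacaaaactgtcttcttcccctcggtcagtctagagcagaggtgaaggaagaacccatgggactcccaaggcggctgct
Serpine2: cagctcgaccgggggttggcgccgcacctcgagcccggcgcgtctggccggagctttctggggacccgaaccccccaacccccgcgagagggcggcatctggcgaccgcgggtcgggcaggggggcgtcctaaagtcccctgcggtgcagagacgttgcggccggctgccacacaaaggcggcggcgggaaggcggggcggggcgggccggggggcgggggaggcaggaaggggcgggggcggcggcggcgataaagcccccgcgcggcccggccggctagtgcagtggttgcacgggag
The F3 window held 2 matches, the Plaur window 1 and the Serpine2 window 0. TGANTCA reads the same on both strands, and 7.81% of the 32851 RefSeq mouse promoter windows of this length held at least 1 match. RefSeq windows were found for 6 of the 9 genes, and Procr and 1 of the Tfpi2 windows also held 1 match each, while the Tfpi windows held 0. Thbd, Plat and Plau were not matched. These matches describe letters and are not evidence of binding.

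The libraries held 17580677 to 31332475 counts on genes, and 3 counts, taken as the floor under which a level was not read, corresponded to 0.0820 to 0.180 CPM, the count scaled to the TMM-adjusted size of its library. The labels give triplicates without naming separate animals, so the spread between libraries may be technical, and intervals and floors cover counting error only because amplified copies were counted as reads. The share of counts in genes over 5000 bases long ran from 21.8% (replicate 2) to 46.7% (replicate 3) in Itga8+ MSCs and from 24.9% (replicate 3) to 55.8% (replicate 2) in Itga8- BLCs, against 42.4% to 47.1% in the other 2 populations. Of the sorting genes, Itga8 averaged 103 CPM in Itga8+ MSCs but also 64.4 CPM in CD51+CD140a+ cells, Ly6a (Sca-1) averaged 636 CPM in Sca-1+ cells and at most 27.5 CPM elsewhere, and Alcam averaged at most 4.92 CPM in any population, including both Alcam+ ones. Pdgfra (CD140a) averaged 767 CPM and Itgav (CD51) 164 CPM in CD51+CD140a+ cells, against 874 and 134 CPM in Sca-1+ cells, and libraries of the pair overlapped for both genes. The 7 osteoblast markers summed to 36721 to 114844 CPM in Itga8- BLCs and at most 19461 CPM elsewhere, the 6 LepR+ stromal markers to 44723 to 61184 CPM in CD51+CD140a+ cells and at most 740 CPM elsewhere, and the 5 adventitial markers to 2106 to 2593 CPM in Sca-1+ cells and at most 107 CPM elsewhere. The 7 endothelial markers, which matter here because endothelium is rich in Thbd, Procr and Tfpi, summed to 10.5 to 41.5 CPM over all 12 libraries. The 6 tendon fibroblast markers were highest in Itga8+ MSCs at 12896 to 23551 CPM (at most 9352 elsewhere), and over all libraries the 7 megakaryocyte markers summed to 15.6 to 40.8 CPM, the 7 erythroid to 125 to 1598 (highest in Itga8+ replicate 2) and the 5 smooth muscle and pericyte to 29.3 to 645.

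The members split into those high in the bone-surface populations and those high in marrow stroma. F3, Plat and Plaur were lowest in CD51+CD140a+ cells by 16.9-fold or more in every comparison with them, whereas Serpine2, Tfpi and Thbd had their highest mean there. Procr and Plau had their highest mean in Sca-1+ cells, and Tfpi2 in Itga8- BLCs. Counts are of RNA from 2000 sorted cells, so fewer cells expressing a gene and less of its RNA per cell cannot be told apart.

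**Figure D1:**
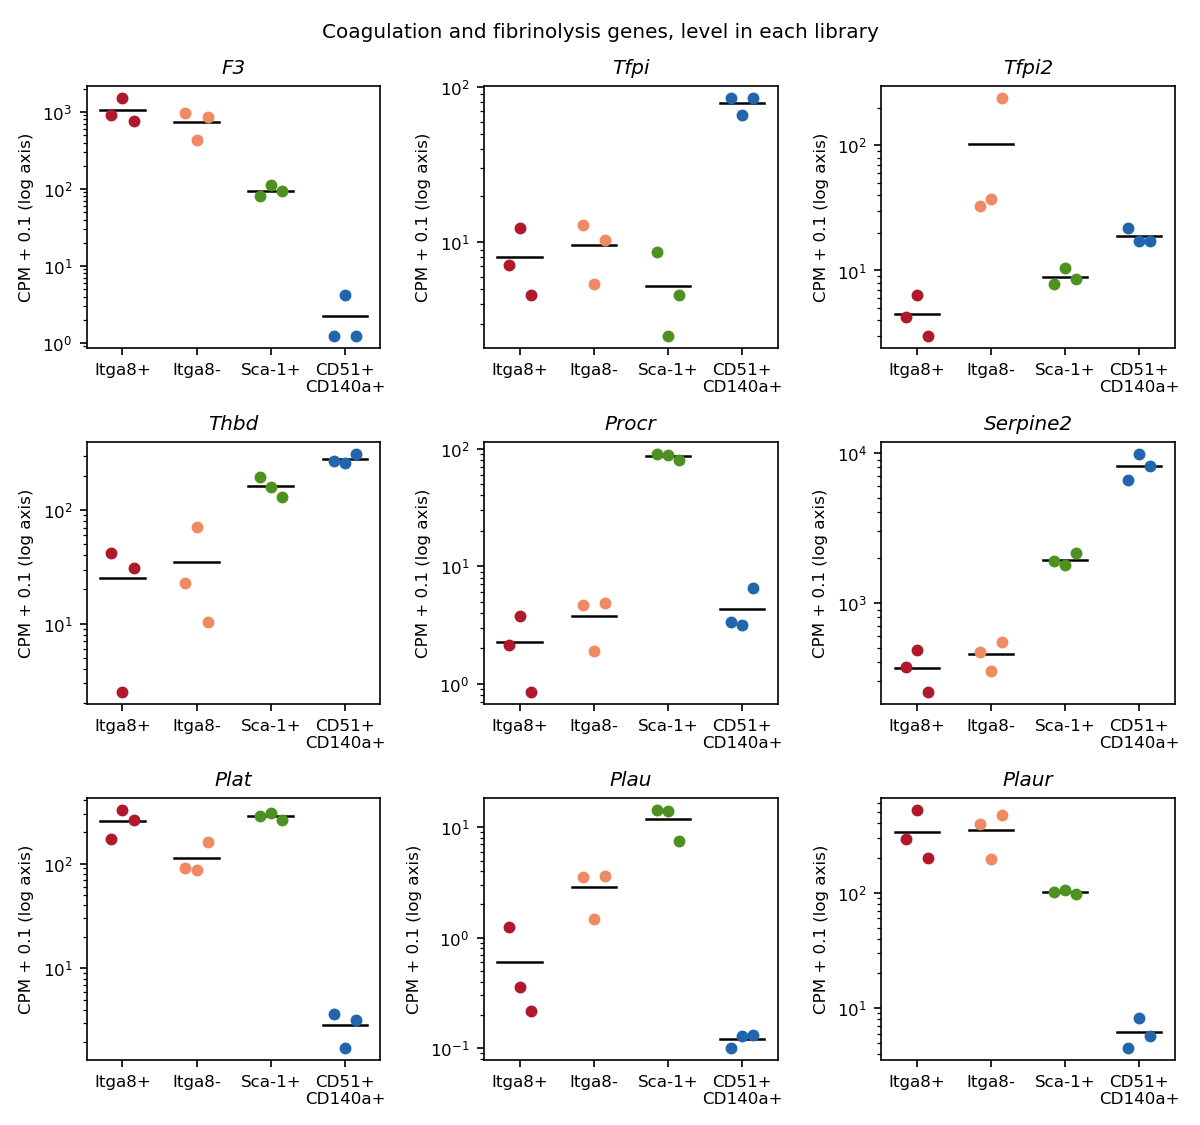
Level of the 9 genes in each of the 12 libraries, as CPM + 0.1 on a log axis, with points for the 3 libraries of a population in replicate order and a line at their mean. F3, Plat and Plaur lie lowest in CD51+CD140a+ cells, where F3 is between 1.13 and 4.07 CPM, while Tfpi and Serpine2 lie highest there, with no overlap with the other populations.

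F3, at chr3:121723537-121735048 on the plus strand (GRCm38), encodes tissue factor, and none of its exonic bases overlaps another annotated gene. Its level in replicates 1 to 3 was 926, 1521 and 755 CPM in Itga8+ MSCs, 955, 428 and 869 CPM in Itga8- BLCs, 81.1, 111 and 92.8 CPM in Sca-1+ cells and 1.15, 4.07 and 1.13 CPM in CD51+CD140a+ cells. The order of the means was Itga8+ MSCs (1067 ± 402 CPM, SD, n = 3), Itga8- BLCs (751 ± 283), Sca-1+ cells (95.1 ± 15.2) and CD51+CD140a+ cells (2.12 ± 1.69). Libraries of Itga8+ MSCs and Itga8- BLCs overlapped, and the other neighbours in this order did not. The fitted fold between Itga8+ MSCs and CD51+CD140a+ cells was 503 (log2 8.97, SE 0.70), with log2 values of 8.66 to 9.87 as each library was left out in turn, the highest without CD51+CD140a+ replicate 2. The log2 difference between Itga8+ MSCs and Itga8- BLCs was 0.51 (SE 0.49), and that between Sca-1+ and CD51+CD140a+ cells was 5.49 (SE 0.60). Per length, F3 stood at 1340 ± 198 TPM (counts scaled by gene length and library) in Itga8+ MSCs and 3.31 ± 2.54 TPM in CD51+CD140a+ cells.

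Tissue factor is also made by activated myeloid cells, so the myeloid markers are given beside it. The 10 myeloid genes summed to 2311 to 11876 CPM in Itga8+ MSCs, 4351 to 6512 in Itga8- BLCs, 886 to 1735 in Sca-1+ cells and 991 to 1702 in CD51+CD140a+ cells. Granule and antimicrobial genes carried most of the sum in Itga8+ MSCs, where Mpo averaged 2820, Lyz2 1316, S100a9 883, Elane 829 and S100a8 727 CPM. Of the macrophage genes, Cd68 averaged 17.8 CPM in Itga8+ MSCs, 10.8 in Itga8- BLCs, 3.27 in Sca-1+ cells and 1.83 in CD51+CD140a+ cells, the order of F3. For the populations as listed, Csf1r averaged 15.1, 18.6, 13.6 and 14.6 CPM and Itgam 2.40, 5.70, 0.971 and 0.999 CPM. Both were highest in Itga8- BLCs and did not have the order of F3. Adgre1 averaged at most 1.24 CPM in any population. The sum was lower in both populations with less F3, and the highest sum, in Itga8+ replicate 2, went with the highest F3 level. Sca-1+ and CD51+CD140a+ cells had overlapping sums while F3 differed between them by 44.8-fold (log2 5.49, and 6.38 without CD51+CD140a+ replicate 2). Within Itga8+ MSCs the libraries had the same order in the sum and in F3. In Itga8- BLCs replicate 1 was highest in the sum (6512 CPM) and in F3. The lowest sum there was in replicate 3 (4351 CPM) and the lowest F3 level in replicate 2 (sum of 4540 CPM). In CD51+CD140a+ cells replicate 2 was highest in the sum and in F3. In Sca-1+ cells the order of the sums was the reverse of that of F3. Without Itga8+ replicate 2, F3 remained 8.66 higher on the log2 scale in Itga8+ MSCs than in CD51+CD140a+ cells, and the part of myeloid RNA in the F3 level was not tested. The 16 immediate early and stress genes, which answer to cell isolation as well as to signals, summed to 23082 to 31753 CPM in CD51+CD140a+ cells and 12290 to 19519 CPM elsewhere, so they were highest where F3 was lowest, and their part was not tested.

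**Figure D2:**
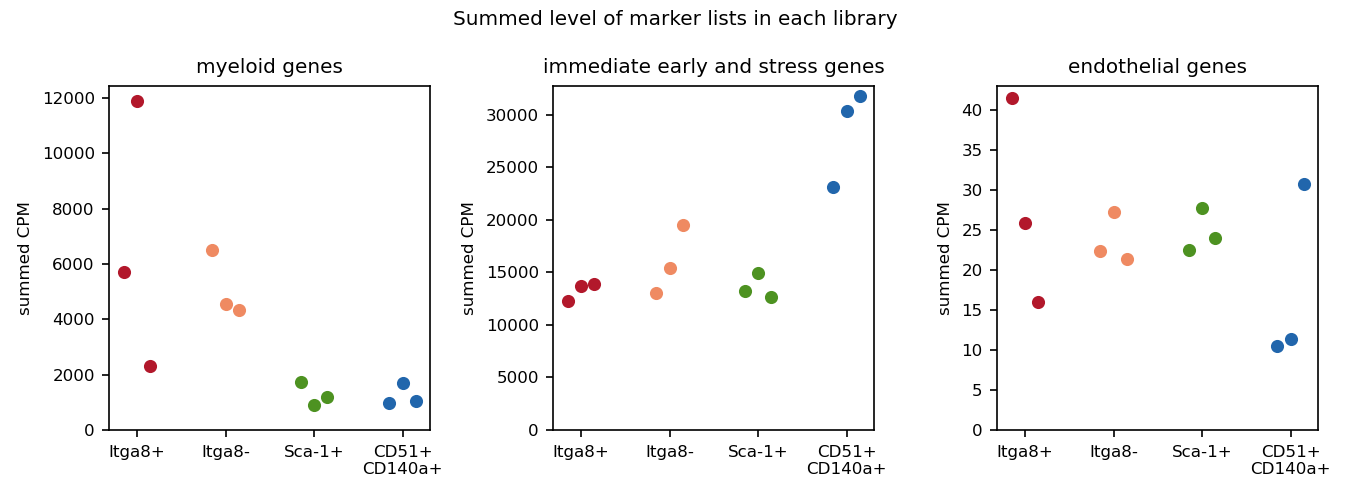
Summed CPM of the 10 myeloid, 16 immediate early and stress, and 7 endothelial marker genes in each library on linear axes that start at 0, with 1 point per library. Myeloid sums are higher in both Alcam+ populations than in the other 2, immediate early sums are highest in CD51+CD140a+ cells (23082 to 31753 CPM), and endothelial sums stay at or under 41.5 CPM.

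Tfpi, which encodes the inhibitor of the tissue factor and factor VIIa complex, lay at chr2:84432855-84476775 on the minus strand and had the opposite order from F3 at its extreme. It stood at 85.2, 65.9 and 84.5 CPM in CD51+CD140a+ cells. In the other populations the 9 libraries held 2.39 to 12.9 CPM and all 3 populations overlapped, with means of 7.96 ± 4.01 in Itga8+ MSCs, 9.51 ± 3.85 in Itga8- BLCs and 5.12 ± 3.12 in Sca-1+ cells. Relative to CD51+CD140a+ cells, Tfpi was lower by 9.85-fold in Itga8+ MSCs, 8.26-fold in Itga8- BLCs and 15.3-fold in Sca-1+ cells, with standard errors of 0.53 to 0.55 on the log2 scale.

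Set per length within each library, the ratio of F3 to Tfpi RNA was 304 ± 51.0 in Itga8+ MSCs, 172 ± 11.2 in Itga8- BLCs, 55.4 ± 41.0 in Sca-1+ cells and 0.0638 ± 0.0604 in CD51+CD140a+ cells (ratio of TPM, mean ± SD, n = 3). The 4 populations did not overlap in this ratio, although Itga8+ MSCs and Itga8- BLCs overlapped in each gene. Within Itga8+ MSCs the ratio ran from 266 to 362. The ratio was above 1 in the 9 libraries from bone fragments and below 1 in the 3 from flushed marrow. It is a ratio of RNA and not of protein.

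**Figure D3:**
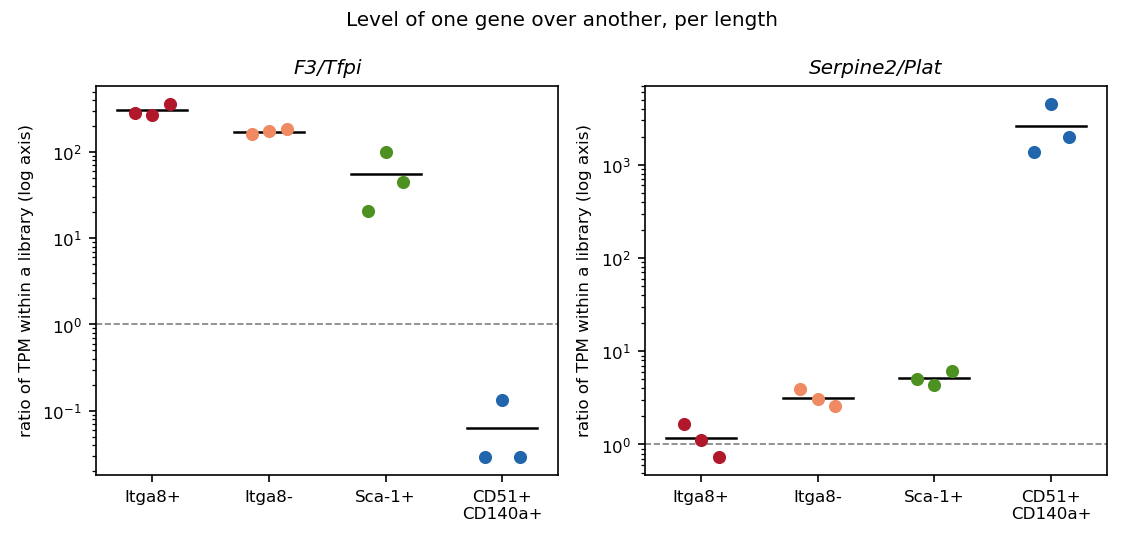
Ratio of TPM within each library for F3 over Tfpi and for Serpine2 over Plat on log axes, with points for libraries, solid lines for means and a dashed line at 1. F3 exceeds Tfpi in every library of the first 3 populations and lies under it in CD51+CD140a+ cells (0.0288 to 0.134), where Serpine2 exceeds Plat by 1384 to 4525 times.

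Tfpi2, a related Kunitz-type inhibitor that acts mainly on plasmin and other proteases in the matrix, lay at chr6:3962595-3988919 on the minus strand. It was at 33.0, 37.0 and 240 CPM in Itga8- BLCs, so replicate 3 alone held most of the mean of 103 ± 118 CPM. The other populations were tighter, at 17.0 to 21.9 CPM in CD51+CD140a+ cells, 7.69 to 10.3 CPM in Sca-1+ cells and 2.89 to 6.23 CPM in Itga8+ MSCs, and none of the 4 overlapped. Tfpi2 was the member with the widest gap between the Alcam+ populations, lower in Itga8+ MSCs than in Itga8- BLCs by 23.3-fold. On the log2 scale this difference was -4.54 (SE 0.73) and -2.98 without Itga8- replicate 3. Between Itga8- BLCs and CD51+CD140a+ cells the log2 difference of 2.46 (SE 0.66) came down to 0.90, under the 2-fold limit, without that library, which also had the second lowest share of counts in long genes.

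Thbd, the single-exon gene of thrombomodulin, which turns thrombin from a clotting enzyme into an activator of protein C, lay at chr2:148404466-148408188 on the minus strand. Its levels were 272, 258 and 314 CPM in CD51+CD140a+ cells, 198, 161 and 131 CPM in Sca-1+ cells, 22.8, 70.7 and 10.3 CPM in Itga8- BLCs and 41.9, 2.39 and 31.1 CPM in Itga8+ MSCs. Both Alcam+ populations overlapped with each other and lay under the remaining 2, which did not overlap. The fold relative to CD51+CD140a+ cells was 11.2 lower in Itga8+ MSCs (log2 -3.48, SE 0.87) and 8.12 lower in Itga8- BLCs (log2 -3.02, SE 0.85). Its lowest values in each Alcam+ population were in the library with the lowest share of counts in long genes, and with the trend across gene length removed the first of these log2 differences was -3.56. Differences from Sca-1+ cells were -2.70 (SE 0.84) and -2.24 (SE 0.83) on the log2 scale, and they passed the thresholds in 10 and 7 of the 12 fits that left out a library. The first was not called without Sca-1+ replicate 1 or 2, and the second without Itga8- replicate 1 or 3 or any 1 of the Sca-1+ libraries. Without Itga8- replicate 2, the Itga8- values were -4.09 against CD51+CD140a+ cells and -3.34 against Sca-1+ cells.

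Procr, which encodes the endothelial protein C receptor and is also a marker of blood stem cells, lay at chr2:155751117-155755471 on the plus strand. It stood at 90.0, 88.7 and 79.4 CPM in Sca-1+ cells and between 0.751 and 6.41 CPM in the other 9 libraries, whose 3 populations overlapped. Sca-1+ cells were 39.7-fold above Itga8+ MSCs (log2 SE 0.62; log2 of Itga8+ over Sca-1+ -5.31, and -5.95 without Itga8+ replicate 2), 23.2-fold above Itga8- BLCs (SE 0.59) and 20.3-fold above CD51+CD140a+ cells (SE 0.58). Thus high Thbd and high Procr coincided in Sca-1+ cells alone, since CD51+CD140a+ cells held Thbd at 281 ± 28.9 CPM with Procr at 4.23 ± 1.89 CPM. The endothelial sum in Sca-1+ cells, 22.5 to 27.8 CPM, lay within the range of the Itga8+ libraries, 16.1 to 41.5 CPM.

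Serpine2 encodes protease nexin-1, a serpin that inhibits thrombin, urokinase and tissue-type plasminogen activator, and lay at chr1:79794197-79861180 on the minus strand. It was the most abundant member in CD51+CD140a+ cells, at 6529, 9817 and 8187 CPM, which per length was 3939 ± 593 TPM. Sca-1+ cells held 1786 to 2130 CPM, Itga8- BLCs 352 to 549 CPM and Itga8+ MSCs 253 to 482 CPM, and of the neighbours in this order only the Alcam+ populations overlapped. The level in CD51+CD140a+ cells was 22.2-fold that in Itga8+ MSCs (log2 of Itga8+ over CD51+CD140a+ -4.47, SE 0.34, and -3.84 with the trend across gene length removed), 18.0-fold that in Itga8- BLCs (SE 0.34) and 4.22-fold that in Sca-1+ cells (SE 0.31).

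Plat, at chr8:22757727-22782844 on the plus strand, encodes tissue-type plasminogen activator, a target of that serpin. It was at 170, 325 and 262 CPM in Itga8+ MSCs, 89.6, 86.2 and 161 CPM in Itga8- BLCs, 286, 306 and 263 CPM in Sca-1+ cells and 3.55, 1.63 and 3.09 CPM in CD51+CD140a+ cells. Sca-1+ cells and Itga8+ MSCs overlapped, Itga8- BLCs lay below both without overlap, and CD51+CD140a+ cells lay far below. Plat was 103-fold higher in Sca-1+, 91.3-fold higher in Itga8+ and 40.7-fold higher in Itga8- cells than in CD51+CD140a+ cells, with standard errors of 0.44 to 0.46 on the log2 scale. Between the Alcam+ populations the log2 difference was 1.17 (SE 0.36), one of 3 members without overlap there. Itga8- BLCs were below Sca-1+ cells by a log2 difference of -1.34 (SE 0.37), which was -1.01 and did not pass with the length trend removed. The Serpine2 to Plat ratio of TPM was 1.16 ± 0.460 in Itga8+ MSCs, 3.18 ± 0.686 in Itga8- BLCs, 5.17 ± 0.868 in Sca-1+ cells and 2634 ± 1665 in CD51+CD140a+ cells, so a serpin and its target were near parity in RNA in the first and far apart in the last.

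Plau encodes urokinase and lay at chr14:20836660-20843385 on the plus strand. It was low throughout, with 14.3, 13.9 and 7.45 CPM in Sca-1+ cells, 3.44, 1.39 and 3.54 CPM in Itga8- BLCs and 1.14, 0.260 and 0.116 CPM in Itga8+ MSCs. CD51+CD140a+ cells had 0, 1 and 1 counts, which is under the floor, as are the 2 counts of Itga8+ replicate 3, so these are not read as levels. Sca-1+ cells and Itga8- BLCs did not overlap with each other or with the remaining 2 populations, and no separation is read between Itga8+ MSCs and CD51+CD140a+ cells library by library. Between Itga8+ MSCs and Itga8- BLCs the log2 difference was -2.43 (SE 0.73), and -3.84 without Itga8+ replicate 1. From pooled counts, the ratio to CD51+CD140a+ cells was 27.1 (95% exact interval of the count ratio, 6.87 to 234) for Itga8+ MSCs, 139 (37.8 to 1156) for Itga8- BLCs and 599.7 (165 to 4962) for Sca-1+ cells. Itga8+ MSCs were 23.0-fold under Sca-1+ cells (log2 -4.53, SE 0.78). Replicate 1 held 23 of the 30 Plau reads of Itga8+ MSCs, and without it this log2 difference was -5.93 and that from CD51+CD140a+ cells, 4.36 with all libraries, was 2.96. Between Itga8- BLCs and Sca-1+ cells Plau differed by -2.09 (SE 0.68), which did not pass without Itga8- replicate 2 or Sca-1+ replicate 1 or 2.

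Plaur, at chr7:24462484-24475968 on the plus strand, encodes the urokinase receptor and did not follow its ligand. It was at 293, 525 and 200 CPM in Itga8+ MSCs, 392, 198 and 474 CPM in Itga8- BLCs, 103, 107 and 97.9 CPM in Sca-1+ cells and 4.40, 8.17 and 5.61 CPM in CD51+CD140a+ cells. Libraries of the Alcam+ populations overlapped (log2 difference -0.06, SE 0.40), and the rest did not. Its level was 56.0-fold that of CD51+CD140a+ cells in Itga8+ MSCs (log2 5.81, SE 0.50) and 3.31-fold that of Sca-1+ cells (log2 1.73, SE 0.41). Sca-1+ cells, highest in Plau, held an intermediate level of the receptor, and CD51+CD140a+ cells were lowest in both. Like F3, Plaur is expressed by myeloid cells, and within Itga8+ MSCs its libraries had the same order as the myeloid sums given above, whereas in Itga8- BLCs the library with the most Plaur, replicate 3, had the lowest myeloid sum. The part of myeloid RNA in the Plaur level was not tested.

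**Figure D4:**
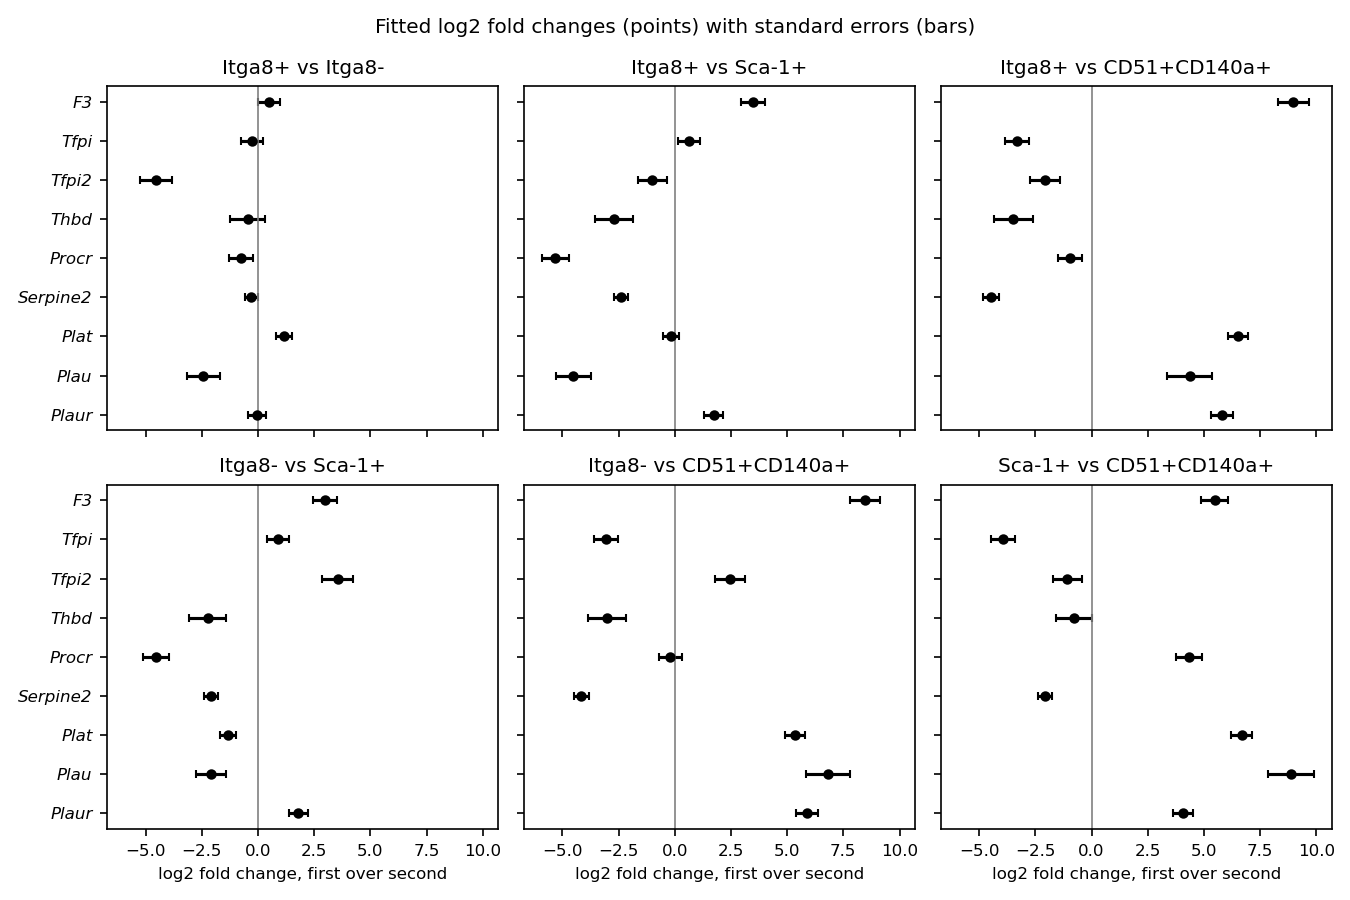
Fitted log2 fold change of each member in the 6 comparisons, the population named first over the population named second, with points for the fitted value and bars for 1 standard error. F3, Plat and Plaur lie to the right and Tfpi, Thbd and Serpine2 to the left in comparisons of Itga8+ or Itga8- cells with CD51+CD140a+ cells, and Tfpi2 lies farthest from 0 between Itga8+ MSCs and Itga8- BLCs (-4.54). The Plau values against CD51+CD140a+ cells depend on the prior count, since that population is under the floor.

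A gene was called when its false discovery rate (FDR) in edgeR's quasi-likelihood test over 18648 genes was under 0.1 and its fold change was above 2. By that rule 1 of the 9 members, Tfpi2, differed between Itga8+ MSCs and Itga8- BLCs, where 3.82% of all genes were called, and 3 of 9 did not overlap, where 14.2% of all genes did not. Against Sca-1+ cells, 6 members in Itga8+ MSCs (21.7% of all genes called) and 8 in Itga8- BLCs (26.4%) passed, and 7 and 8 did not overlap (37.6% and 45.7% of all genes). Against CD51+CD140a+ cells, 8 passed in Itga8+ MSCs (35.6%), 8 in Itga8- BLCs (35.3%) and 7 in Sca-1+ cells (20.5%). In these 3 comparisons 8, 8 and 9 members did not overlap, against 44.4%, 49.8% and 45.9% of all genes. Plau was counted in each of them with CD51+CD140a+ cells under the floor, and in the first with Itga8+ replicate 3 under it too. The members were listed with these contrasts known, so nothing is read from these shares. The comparisons share libraries and are not independent of each other.

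Around the members, 51 further genes of the clotting and fibrinolytic systems were examined as a wider list, also drawn up with earlier results known. Of these, 38 reached 0.5 CPM, here on library totals without TMM adjustment, in 1 or more libraries, which was the filter for testing, and 25 averaged at least 5 CPM in a population. The 13 below the filter were F7, F9, F11, F12, F13b, Klkb1, Fgb, Proc, Proz, Serpina5, Serpina10, Cpb2 and Hrg, most of them genes of plasma proteins made by the liver, and 6 of these had no count in any library. Since a gene could pass the filter, or be named, through 1 population alone, the counts over the 38 and the FDR values of named genes are a description.

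Between Itga8+ MSCs and Itga8- BLCs, F2r and Serping1 were higher and Fgl2 was lower in Itga8+ MSCs, which is 2 and 1 of 38 against 1.66% and 2.16% of all genes called higher and lower. The median log2 difference of the list was -0.12, and that of all genes 0.08. Compared with Sca-1+ cells, 9 were higher and 4 lower in Itga8+ MSCs (all genes, 12.9% and 8.89%), and 11 were higher and 5 lower in Itga8- BLCs (14.5% and 11.9%). Compared with CD51+CD140a+ cells, 14 were higher and 8 lower in Itga8+ MSCs (21.2% and 14.3%), 12 higher and 7 lower in Itga8- BLCs (20.4% and 14.9%) and 9 higher and 6 lower in Sca-1+ cells (11.2% and 9.30%). The list medians in these 3 comparisons were 0.49, 0.67 and 0, beside 0.18, 0.09 and -0.0026 for all genes.

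Among thrombin receptors, F2r, which encodes the main protease-activated receptor for thrombin, was the one that averaged at least 5 CPM. It stood at 90.3, 128 and 425 CPM in Itga8+ MSCs, 8.82, 19.6 and 5.16 CPM in Itga8- BLCs, 48.7, 86.4 and 48.5 CPM in Sca-1+ cells and 11.9 to 13.8 CPM in CD51+CD140a+ cells. Every Itga8+ library was above every library of the other populations, with replicate 3 far above the other 2. It was 19.2-fold higher in Itga8+ MSCs than in Itga8- BLCs (log2 4.26, SE 0.66, edgeR FDR = 0.00405), and 3.28 on the log2 scale without Itga8+ replicate 3 and 4.95 without Itga8- replicate 2. The difference from Sca-1+ cells (log2 1.81, SE 0.59, edgeR FDR = 0.0592) was 0.79 and no longer called without that library, and was not called without Sca-1+ replicate 1 or 3 or with only those populations fitted (FDR 0.112 in edgeR). From CD51+CD140a+ cells it was 4.06 (SE 0.65, edgeR FDR = 0.000697), and 3.08 without Itga8+ replicate 3.

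**Figure D5:**
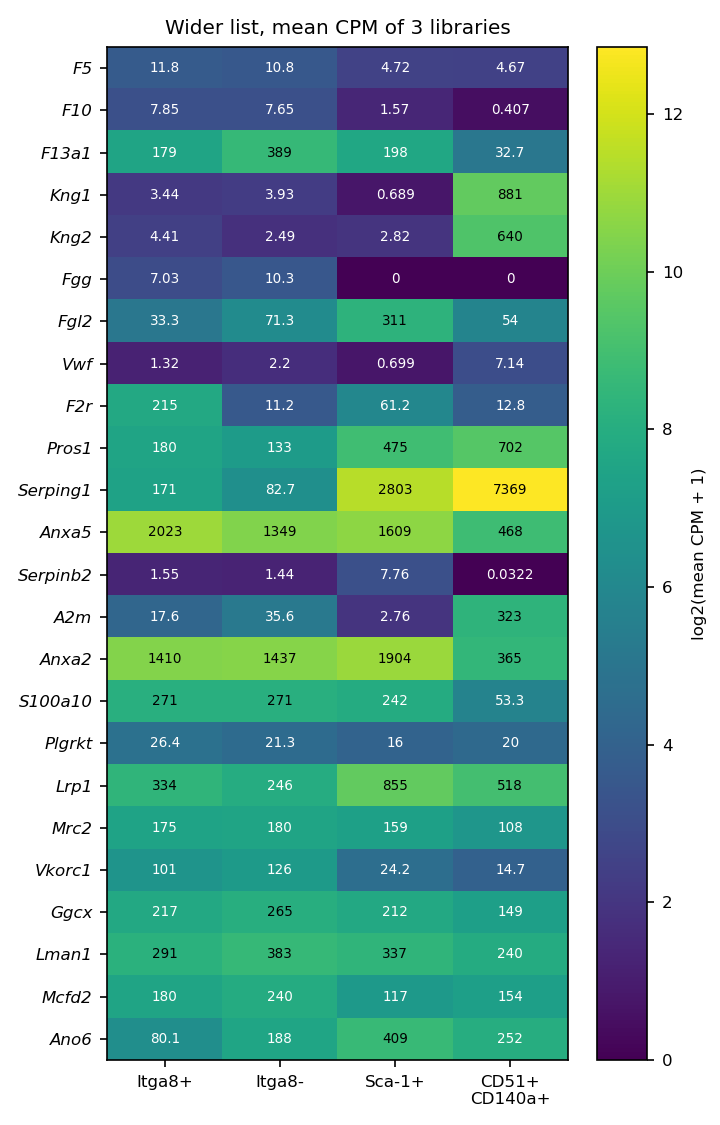
Mean CPM of 3 libraries for 24 of the 25 genes of the wider list that averaged at least 5 CPM in a population, with the value printed in each cell and colour on a log2(mean CPM + 1) scale. F2r is highest in Itga8+ MSCs (215), Fgl2 in Sca-1+ cells (311), and Kng1, Kng2, Serping1 and A2m in CD51+CD140a+ cells.

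Of the coagulation factors, the kininogens, which feed the contact pathway, were nearly confined in level to CD51+CD140a+ cells. Kng1 stood at 731 to 999.6 CPM and Kng2 at 599 to 662 CPM there, and neither exceeded 7.58 CPM in the other 9 libraries. Kng1 was lower in Itga8+ MSCs by 255-fold than in CD51+CD140a+ cells (log2 -8.00, SE 0.42, edgeR FDR = 7.05e-07). The pair are close copies, with 82.8% of the 50-base words of Kng1 and 80.6% of those of Kng2 found in no other gene, so reads could be split between them. Vwf, the von Willebrand factor gene of endothelium and platelets, averaged 7.14 CPM in CD51+CD140a+ cells and at most 2.20 CPM elsewhere. The difference was called against each of them, though not for Itga8+ MSCs without CD51+CD140a+ replicate 1 (edgeR FDR = 0.103). For Itga8- BLCs the libraries overlapped, the FDR was 0.0972 in edgeR, and the call held in 4 of the 12 fits that left out a library.

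Fgg, which encodes the gamma chain of fibrinogen, went the other way, at 9.80, 7.48 and 3.81 CPM in Itga8+ MSCs and 14.8, 5.51 and 10.6 CPM in Itga8- BLCs, with 0 counts in all 6 libraries of the other populations. Against the floor of 3 counts per library, the level in Itga8+ MSCs was at least 45.9-fold higher than that of Sca-1+ cells, and the bound relative to CD51+CD140a+ cells was at least 79.7-fold higher. Fga, the alpha chain, named here after its values were seen, had 0 to 25 counts in the 6 Alcam+ libraries and 0 in the others, and Fgb was below the filter. An exonic share of 5.49% of Fgg overlaps the antisense gene Gm30097, and the use of strand in counting is not given in the sources used here. F10, the gene of factor X, which tissue factor and factor VIIa activate, averaged 7.85 ± 2.81 CPM in Itga8+ MSCs, 7.65 ± 3.21 in Itga8- BLCs, 1.57 ± 0.693 in Sca-1+ cells and 0.407 ± 0.137 in CD51+CD140a+ cells. It was called in 5 of the 6 comparisons (not between Sca-1+ and CD51+CD140a+ cells without Sca-1+ replicate 3, log2 1.56), with a log2 difference of 4.26 (SE 0.55, edgeR FDR = 0.000162) between Itga8+ MSCs and CD51+CD140a+ cells, and its levels followed the order of the myeloid sums between the Alcam+ and the remaining populations, a relation that was not tested.

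F13a1, which encodes the enzyme that cross-links fibrin and is also made by macrophages, was lowest in CD51+CD140a+ cells at 32.7 ± 17.0 CPM. It was higher by 2.45 (SE 0.56), 3.57 (SE 0.59) and 2.60 (SE 0.56) on the log2 scale in Itga8+, Itga8- and Sca-1+ cells, with edgeR FDR values of 0.00684, 0.000838 and 0.00660. Fgl2, a membrane protein of the fibrinogen family with prothrombinase activity, was highest in Sca-1+ cells at 311 ± 49.7 CPM and called there against each other population. Its difference between Itga8+ MSCs and Itga8- BLCs (log2 -1.10, SE 0.31) lay at the threshold, with an FDR of 0.0999 in edgeR, and was kept in 1 of the 12 fits that left out a library, that without Itga8- replicate 3 (log2 -1.33), and not with only those populations fitted (FDR 0.464). F5, the gene of factor V, averaged 4.67 to 11.8 CPM and passed in none of the 6 comparisons in edgeR.

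Of the anticoagulant genes, Serping1, which encodes the C1 inhibitor that also blocks factor XIIa and kallikrein, covered the widest range. It stood at 6388, 7741 and 7979 CPM in CD51+CD140a+ cells, 2908, 2795 and 2706 CPM in Sca-1+ cells, 180, 192 and 142 CPM in Itga8+ MSCs and 83.1, 71.0 and 93.9 CPM in Itga8- BLCs. The 4 populations did not overlap. All 6 differences were called, the widest being lower in Itga8- BLCs than in CD51+CD140a+ cells by 89.1-fold (log2 -6.48, SE 0.30, edgeR FDR = 5.35e-07). The smallest, 2.07-fold between Itga8+ MSCs and Itga8- BLCs (edgeR FDR = 0.0382), was not called without Itga8+ replicate 1 or 2 or Itga8- replicate 1 or 2 (log2 0.96 to 1.07), nor with only those populations fitted (FDR 0.358 in edgeR). Pros1, the gene of protein S, the cofactor of protein C, averaged 702 ± 112 CPM in CD51+CD140a+ cells and 475 ± 31.4 in Sca-1+ cells, and was lower in Itga8+ MSCs at 180 ± 65.7 and Itga8- BLCs at 133 ± 27.4, with log2 differences of -1.40 to -2.40 that were all called. Anxa5, whose product covers the phosphatidylserine on which clotting enzymes assemble, was higher by 2.11 (SE 0.35), 1.53 (SE 0.34) and 1.78 (SE 0.34) on the log2 scale in Itga8+, Itga8- and Sca-1+ cells than in CD51+CD140a+ cells, where it averaged 468 ± 58.8 CPM (edgeR FDR = 0.000818, 0.00549 and 0.00296). The second was 0.97 with the length trend removed.

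Of the fibrinolysis genes, Anxa2 and S100a10, whose products form the complex that binds plasminogen and Plat protein at the cell surface, were lowest where Plat was lowest. In CD51+CD140a+ cells Anxa2 stood at 329 to 393 CPM and S100a10 at 50.5 to 57.1 CPM, and every other library was higher, from 983 CPM and 126 CPM upwards. Both were called in the 3 comparisons with CD51+CD140a+ cells, with log2 differences of 1.95 (SE 0.35), 1.98 (SE 0.35) and 2.38 (SE 0.35) for Anxa2. For S100a10, a short gene, they were 2.35 (SE 0.62), 2.35 (SE 0.62) and 2.18 (SE 0.61), and the first 2 were 1.48 and 1.64 with the length trend removed, and 1.29 without Itga8+ replicate 2 and 1.54 without Itga8- replicate 3, still called. A2m, a broad protease inhibitor that also takes up plasmin, was higher in CD51+CD140a+ cells at 323 ± 22.6 CPM than in the other populations, which averaged 2.76 to 35.6 CPM, with log2 differences of -3.18 to -6.87, all called. These moved for Itga8+ MSCs from -4.20 to -5.48 without Itga8+ replicate 3, for Itga8- BLCs from -3.18 to -4.09 without Itga8- replicate 2 and for Sca-1+ cells from -6.87 to -7.84 without Sca-1+ replicate 1.

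Serpinb2, a urokinase inhibitor of which 12.4% of exonic bases overlap Serpinb10 on the same strand, had 0, 0 and 3 counts in CD51+CD140a+ cells. Its ratio to that population from pooled counts was 51.2 (95% exact interval, 16.9 to 253) in Itga8+ MSCs and 261 (88.7 to 1273) in Sca-1+ cells. Plgrkt, Lrp1 and Mrc2, the first a plasminogen receptor, the second a receptor that clears inhibitor complexes and the last a collagen receptor that associates with the urokinase receptor, passed in none of the 6 comparisons in edgeR with all libraries. Lrp1 ranged from 87.7 to 813 CPM within Itga8+ MSCs alone. Its log2 difference between Itga8- BLCs and Sca-1+ cells was called in DESeq2 (-1.82, FDR 0.0876), limma-trend (-2.31), library totals alone (-2.10), the fit of those populations alone (-1.83) and without Itga8+ replicate 3 (-1.84) or Itga8- replicate 2 (-3.27). That between Itga8+ MSCs and Sca-1+ cells was called in limma-trend (-2.09) and without Itga8+ replicate 3 (-3.21), where Mrc2 was called too (-2.08). From CD51+CD140a+ cells, Lrp1 was called lower in Itga8+ MSCs without Itga8+ replicate 3 (-2.46) and in Itga8- BLCs without Itga8- replicate 2 (-2.51).

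Of the genes for factor processing, Vkorc1, the vitamin K reductase that is the target of warfarin, stood at 57.6, 199.9 and 44.7 CPM in Itga8+ MSCs and averaged 126 ± 93.7 in Itga8- BLCs, 24.2 ± 3.40 in Sca-1+ cells and 14.7 ± 2.63 in CD51+CD140a+ cells. It was called higher in both Alcam+ populations than in the remaining 2, but its highest libraries, Itga8+ replicate 2 (199.9 CPM) and Itga8- replicate 3 (231 CPM), were those with the lowest share of counts in long genes, and 47.7% of its exonic bases overlap Gm21974 on the same strand. Its difference between Itga8+ MSCs and Sca-1+ cells (log2 2.05, SE 0.61, edgeR FDR = 0.0413) was 1.06 and not called without Itga8+ replicate 2, and not called without any 1 of the Sca-1+ libraries (1.97 to 2.17). Ano6, the scramblase that exposes phosphatidylserine, averaged 409 ± 71.3 CPM in Sca-1+ cells and was lower in Itga8+ MSCs at 80.1 ± 86.7 (log2 -2.35, SE 0.75, edgeR FDR = 0.0527), a call lost without Itga8+ replicate 1 (-2.03) or Sca-1+ replicate 1 or 2, and -3.79 without Itga8+ replicate 3. Its log2 difference between Itga8+ MSCs and CD51+CD140a+ cells (-1.65, FDR 0.104 in edgeR) was called in DESeq2 (-1.63), limma-trend (-2.24), library totals alone (-1.81), with no filter beyond 1 count (-1.68), with the length trend removed (-1.29) and without Itga8+ replicate 3 (-3.05) or Itga8- replicate 2 (-1.64) or 3 (-1.64). Mcfd2 was higher in Itga8- BLCs than in Sca-1+ cells (log2 1.04, SE 0.33, edgeR FDR = 0.0423), but its log2 difference was 0.65 without Itga8- replicate 3, under the 2-fold limit, and the call was kept in 7 of the 12 fits without a library. Ggcx, the gamma-glutamyl carboxylase gene, and Lman1, the partner of Mcfd2 in the transport of factors V and VIII, passed in none of the 6 comparisons in edgeR with all libraries. Between Itga8- BLCs and CD51+CD140a+ cells, Lman1 was called with the length trend removed (log2 1.19) and Ggcx without Itga8- replicate 1 (log2 1.02).

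Among 10564 genes that averaged at least 10 CPM in a population, those whose log2(CPM + 1) pattern over the 12 libraries was most like that of F3 were Plaur (Pearson r = 0.989), Pde4b (0.989), Fam180a (0.987), Scrg1 (0.987) and C1qtnf3 (0.986). The libraries share populations, so r mostly reflects the 4 levels and is a description. Fam180a averaged 365 CPM in Itga8+ MSCs, 219 in Itga8- BLCs, 70.2 in Sca-1+ cells and 2.19 in CD51+CD140a+ cells, and Scrg1 averaged 470, 312, 41.5 and 2.05 CPM. Pde4b and C1qtnf3 kept 19.7 and 14.2 CPM in CD51+CD140a+ cells. Of the other members, Plat had an r of 0.846 with F3, Plau 0.274, Tfpi2 -0.028, Procr -0.141, Tfpi -0.772, Thbd -0.833 and Serpine2 -0.955. Plaur was 1 of the 5 nearest genes in each fit that left out a library.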

How the data were processed

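RNA-seq was done on 12 libraries, 3 for each of 4 sorted populations, prepared with the SMART-Seq v4 and Nextera XT kits. The authors deposited raw counts of reads per Ensembl gene, not normalized, with mm10 as the build. Their text names TopHat and Bowtie2, and the submitters' processing notes list FastQC 0.11.7, Trimmomatic 0.38, HISAT2 2.1.0, SAMtools 1.9 and featureCounts 1.6.3. The annotation release and the use of strand are not given in the sources used here.

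Groups came from the sample labels. All 12 libraries were fitted together with edgeR 4.0.16 in R 4.3.3 (TMM, genes reaching 0.5 CPM of unadjusted totals in 1 or more libraries, quasi-likelihood, two-sided, Benjamini-Hochberg FDR under 0.1 and fold change above 2), and the standard error was the log2 fold change over the square root of F. The tests were run on simulated data first. CPM used TMM-scaled totals, and TPM, positions and exon overlaps used GENCODE M21, which holds 49326 of the 49585 identifiers. Other tools were limma 3.58.1, DESeq2 1.42.0, matplotlib 3.10.9, scipy 1.17.1, pandas 2.3.3 and numpy 2.4.6 in Python 3.11.15.

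The members and lists were chosen with earlier results of these data known. Named genes were the 9 members, every gene of the wider list with a mean of at least 5 CPM in a population (genes below it are named only for filters, counts and chains of fibrinogen), the 5 genes most like F3, and the sorting genes. By name, 1 gene of the wider list is not reported here, though the counts over the list hold it. Marker lists were summed. Alternatives were a replicate block, limma-trend, DESeq2, library totals without factors, RLE, 2 other filters, separate fits for each pair of populations, each library left out in turn and an FDR limit of 0.05. Removal of the length trend was added after the data had been seen.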

Additional observations from a re-analysis of the deposited data

How the results depend on the processing

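Limits of these results include the spread of the Alcam+ libraries. None of the 38 member differences past the thresholds changed direction in any alternative, and 5 of them lost their call in at least 1 of those with an adjusted p. DESeq2 gave Tfpi2 no adjusted p in the 4 comparisons in which edgeR called it. Of the 66 called differences of named genes in the wider list, none changed direction and 12 lost their call in at least 1 alternative. The wider list had 3 genes called between Itga8+ MSCs and Itga8- BLCs, and 1 with only those populations fitted. Its 13 genes called between Itga8+ and Sca-1+ cells were 8 at an FDR under 0.05. As each library was left out in turn, these counts ran from 1 to 3 and from 8 to 14, with 1 without Itga8+ replicate 2 or without Itga8- replicate 1 or 2, and 8 without any 1 of the Sca-1+ libraries. In the same fits the other counts ran from 18 to 22 (Itga8+ against CD51+CD140a+), 12 to 17 (Itga8- against Sca-1+), 15 to 19 (Itga8- against CD51+CD140a+) and 13 to 15 (Sca-1+ against CD51+CD140a+). In limma-trend, fold changes that moved by over 1.5 times included those of Thbd in Itga8+ MSCs (log2 -3.45 against Sca-1+ and -4.24 against CD51+CD140a+ cells), Tfpi2 between Itga8+ and Itga8- (log2 -3.95) and A2m between Itga8+ and CD51+CD140a+ (log2 -4.91), beside genes near the floor. With the length trend removed, the log2 value of Anxa5 in Itga8+ over CD51+CD140a+ cells was 1.51, that of Tfpi2 in Itga8- over CD51+CD140a+ cells 1.74 and that of Vkorc1 in Itga8+ over Sca-1+ cells 1.39. The cause of these moves was not tested.

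With the replicate number as a block, the wider list had 1, 9, 20, 13, 16 and 14 genes called in the order of the report, against 3, 13, 22, 16, 19 and 15 without it. Same-numbered libraries deviated together in no consistent way (r of -0.736 to 0.342), and not every library correlated best with its own number, so the numbers were not taken as pairs. Called differences of named genes that did not pass with the block were Fgl2 and Serping1 (Itga8+ against Itga8-), Thbd, F2r and A2m (Itga8+ against Sca-1+), Thbd, Serpinb2 and Mcfd2 (Itga8- against Sca-1+) and Vwf (Itga8- against CD51+CD140a+), and no other call of a named gene was lost.

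Over all genes, the 712 called between Itga8+ MSCs and Itga8- BLCs became 1203 in DESeq2, 276 with only these populations, 433 with the block, 464 at an FDR under 0.05 and 433 without Itga8- replicate 3. The 4055 between Itga8+ and Sca-1+ cells became 2642, 2386 and 2492 without Sca-1+ replicate 1, 2 and 3. In the first comparison 1 member, Tfpi2, was called. There were 2 in DESeq2 (Plat and Plau, with no adjusted p for Tfpi2), 2 in limma-trend and without Itga8+ replicate 1 (Tfpi2 and Plau), and 2 with library totals alone and without Itga8- replicate 3 (Tfpi2 and Plat). With library totals alone the median of all genes moved from 0.08 to 0.34 between Itga8+ MSCs and Itga8- BLCs, where 495 of 808 rather than 310 of 712 calls were higher. It moved from 0.12 to -0.07 between Itga8- BLCs and Sca-1+ cells (2171 of 5100 rather than 2706 of 4930 higher), and from 0.09 to -0.24 between Itga8- BLCs and CD51+CD140a+ cells (2934 of 7024 rather than 3808 of 6578). The smaller shifts against CD51+CD140a+ cells were from 0.18 to 0.08 for Itga8+ and from -0.0026 to -0.147 for Sca-1+ cells. The 5 genes most like F3 shared 4 with those by log2(CPM + 4), 3 to 5 with those of each fit without a library, and 0 with those by Spearman's rho (Car8, Pard6a, Ccdc115, Nop58 and Zc3h15).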
